A study of Homo sapiens with 4 samples.

Results

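The ATF4 amino acid response and tRNA synthetase genes examined here were 43 genes in 4 roles: 17 cytosolic aminoacyl-tRNA synthetases, 8 enzymes of serine synthesis and the folate one-carbon cycle, 7 other amino acid enzymes and transporters, and 11 transcription factors and stress-induced effectors. Members were chosen by gene symbol from this known response, and 34 of the 43 were among the 6828 genes of the deposited table. The cells were A549, an established human lung adenocarcinoma line, infected with a lentivirus expressing a control short hairpin RNA (shctrl) or one against the long noncoding RNA USP2-AS1 (shUSP2-AS1). Poly-A RNA was sequenced 72 h after infection from 2 biological replicates of each group, and both groups carried a PLKO.1 shRNA construct. Infected cells were selected with puromycin. Which of the study's USP2-AS1 hairpins these libraries carry is not given in the sources used here.

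ATF4 is a basic leucine zipper transcription factor whose translation rises when kinases that sense amino acid shortage, unfolded protein, haem deficiency or viral RNA phosphorylate the initiation factor eIF2. With partners of the C/EBP family it binds composite C/EBP-ATF response elements and induces amino acid transporters, asparagine and serine synthesis, mitochondrial folate enzymes and many of the synthetases that load amino acids onto tRNA. The same programme also holds feedback and death-related genes such as TRIB3, CHAC1 and DDIT3.

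The response element was searched as the letters TGATGNAA on both strands of RefSeq promoter sequences (assembly GRCh38.p14), each covering 250 bases before and 50 bases after an annotated start. The letters were in 3.62% of the 35116 promoters and in at least 1 promoter of 4.46% of the 27305 genes with one. Of the 36 members matched to a promoter, 14 held it, namely 7 of 14 synthetases, 1 of 6 serine and one-carbon enzymes, 4 of 6 other enzymes and transporters and 2 of 10 stress factors. A match describes the sequence and does not show that a factor binds there. The windows of the 7 synthetases are shown, followed by those of ASNS (asparagine synthetase), CHAC1, CEBPG and MTHFD1L from the other roles. The search fixed 7 of the 8 letters, so every window shares these by design. Capitals mark the element, and each window is 30 bases read 5′ to 3′ on the strand that carries it.
AARS1, chr16:70289675-70289704, plus strand: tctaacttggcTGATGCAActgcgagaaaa
CARS1, chr11:3057407-3057436, plus strand: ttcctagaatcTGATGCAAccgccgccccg
GARS1, chr7:30594834-30594863, minus strand: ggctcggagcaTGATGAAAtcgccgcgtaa
IARS1, chr9:92293692-92293721, plus strand: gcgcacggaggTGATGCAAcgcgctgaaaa
MARS1, chr12:57488053-57488082, minus strand: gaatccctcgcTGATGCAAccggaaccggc
NARS1, chr18:57621804-57621833, minus strand: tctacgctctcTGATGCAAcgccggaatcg
TARS1, chr5:33440956-33440985, minus strand: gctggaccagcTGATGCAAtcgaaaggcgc
ASNS, chr7:97872458-97872487, minus strand: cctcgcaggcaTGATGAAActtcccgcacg
CHAC1, chr15:40953251-40953280, minus strand: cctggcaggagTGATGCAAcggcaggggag
CEBPG, chr19:33374060-33374089, plus strand: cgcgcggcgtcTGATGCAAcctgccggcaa
MTHFD1L, chr6:150866346-150866375, plus strand: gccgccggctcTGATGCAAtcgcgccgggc
In 6 of the 7 synthetases the free letter was C, as in 10 of the 14 sites of all members. In 6 of the 7 the element lay on the strand opposite to the gene. Counted along the gene's strand, the first base of the element was within 40 bases of the RefSeq start in 6 of the 7. AARS1 was the exception at position -187. The gene model of AARS1 in the deposited table starts farther upstream, at 70289707, so its window lies inside that model. The windows of PHGDH and MTHFD2, the 2 members called lower below, held no match to these letters, which says nothing of sites elsewhere. For comparison, the E-box CACGTG was in 7 of the 36 members against 8.77% of all genes. The E2F letters TTTCCCGC or TTTGGCGC were in 1 of 36, TARS1, against 2.75%. Among genes of the deposited table with a promoter, the E-box was in 6 of 28 members against 12.8%. There the E2F letters were in 1 of 28 against 4.69%, and the response element in 12 of 28 against 2.83%.

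Values are the authors' normalized read counts, that is, reads per gene divided by a size factor of the library. Whole reads could be recovered from every value and summed to between 10772788 and 14120472 per library over the listed genes. Every gene in the table has an adjusted p below 0.05 in the authors' own comparison, so a member is present because it differed there, and how many members passed a test says little by itself. Direction and size are what can be compared. USP2-AS1 itself was at 23.2 and 24.2 normalized read counts in the shctrl libraries and at 2.10 and 6.16 in the shUSP2-AS1 libraries, from 24, 22, 2 and 7 reads, a log2 fold change of -2.39 ± 0.56 (SE, n = 2 per group, adjusted p = 0.000597). A549 cells are epithelial, and the keratins KRT7, KRT8, KRT18 and KRT19 were listed with at least 3254 normalized read counts in every library, whereas EPCAM and CDH1 were not listed. Their log2 fold changes after knockdown were -0.49 for KRT7, -0.77 for KRT8, -1.05 for KRT18 and 0.75 for KRT19. None of 3 leukocyte and 3 endothelial markers was listed, and of 4 fibroblast markers COL1A1 and LUM were, both higher after knockdown (log2 fold changes of 1.05 and 3.08). LUM rested on 2, 1, 24 and 18 reads, COL1A1 on 267 to 702, and the part of these epithelial and fibroblast genes in the results below was not tested.

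Fold changes are shUSP2-AS1 against shctrl on the log2(value + 1) scale, from limma fitted to all 6812 genes whose mean value reached 10, and p-values were adjusted over all of them. A gene is said to have fallen or risen where the adjusted p was below 0.05, which held downward for 49.4% and upward for 50.6% of all tested genes. It is called lower or higher where it also changed at least 2-fold, which held for 13.5% and 16.1%. Of the 34 listed members, 27 fell, 6 rose and SLC7A5 did not pass the test. The median log2 fold change was -0.43 over the members and 0.19 over all tested genes. The selection leaves few genes near 0, so the median over all genes is not a stable baseline. It was -0.16 where at least 10 reads were required in every library. In 26 of the 34 members the absolute log2 fold change was below 0.69, the median over all tested genes. PHGDH and MTHFD2 were the 2 members called lower. In limma, 0 members were called higher, as in edgeR and DESeq2, while 6 were higher at an unadjusted p below 0.05. In all 34 members the shUSP2-AS1 libraries did not overlap the shctrl libraries, which was also so for 100% of the tested genes to 3 digits (6811 of 6812). The members were lower in shUSP2-AS1 replicate 1 than in replicate 2 in 26 of 34 cases, against 54% of all tested genes.

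**Figure D1:**
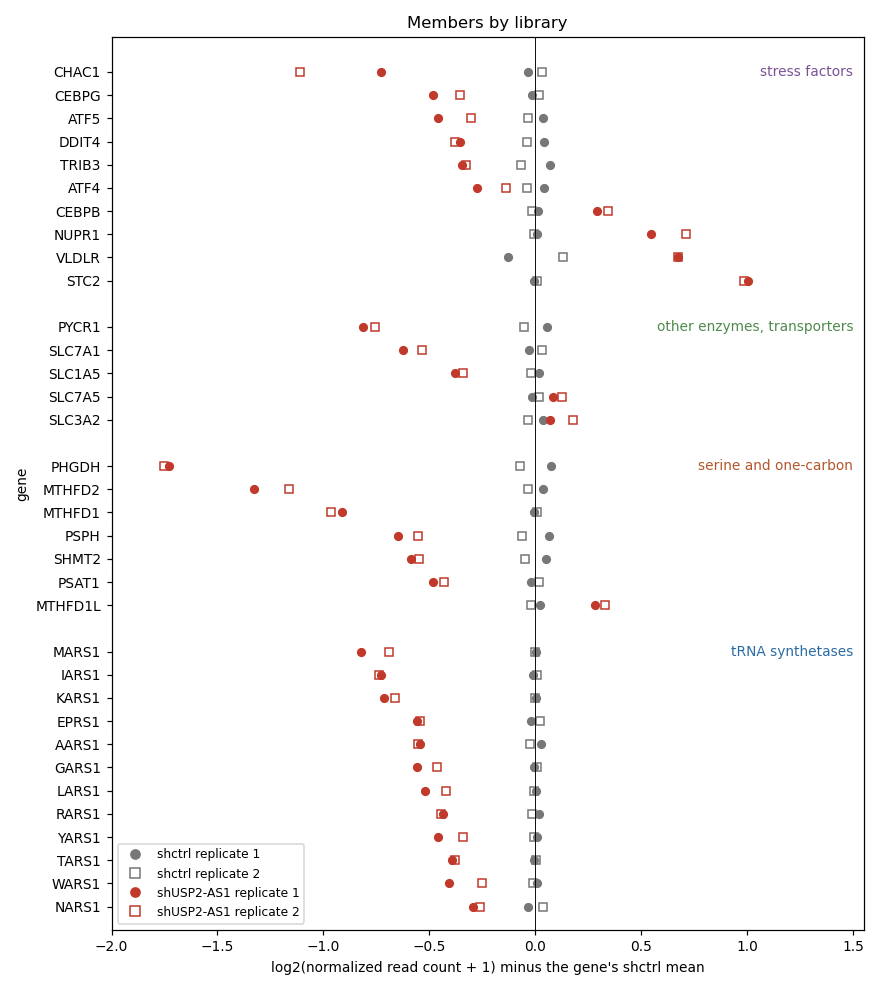
Each row is a listed member and each point 1 library, plotted as log2(normalized read count + 1) minus the mean of the shctrl libraries of that gene, with shctrl in grey, shUSP2-AS1 in red, replicate 1 filled and replicate 2 open. The red points of all 12 synthetases lie left of the grey ones, those of the serine and one-carbon enzymes do so except for MTHFD1L, and the stress factors lie on both sides.

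**Figure D2:**
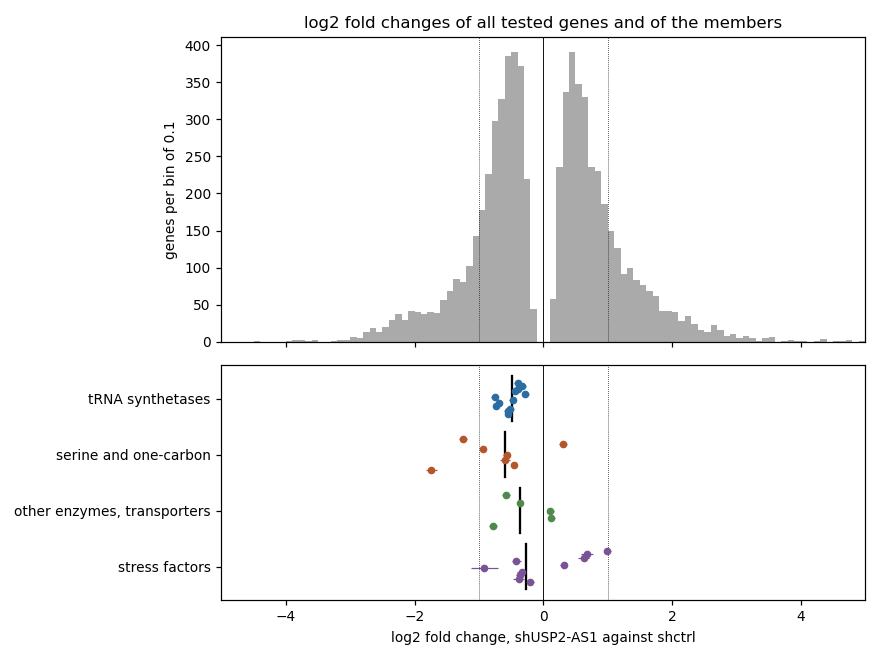
The upper panel is a histogram of log2 fold changes over the 6812 tested genes and the lower panel gives the 34 members by role, with bars of 1 SE, a black line at each median and dotted lines at -1 and 1. The gap at 0 comes from the selection of the table, and the synthetases lie between -0.76 and -0.28, nearer to 0 than the dotted line.

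The synthetases fell together and by a moderate amount. All 12 that were listed fell, with a median log2 fold change of -0.49 and a range from -0.76 to -0.28. Their summed normalized read counts were 42253 and 42292 in shctrl and 28856 and 29802 in shUSP2-AS1, a mean difference of -30.6%. Within a group the replicates of a synthetase differed by at most 0.15 on the log2 scale. None was called lower, since none reached a 2-fold change, and their median was nearer to 0 than the -0.68 over all genes with a negative fold change. Over every library left out in turn their log2 fold changes lay between -0.82 and -0.24.

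MARS1, which charges methionine onto both initiator and elongator tRNA, was at 3783 and 3778 normalized read counts in shctrl and at 2137 and 2338 in shUSP2-AS1. Its log2 fold change was -0.76 ± 0.06 (SE, adjusted p = 9.75e-10), the largest decrease among the listed synthetases of the set. The gene (ENSG00000166986, chr12:57475445-57517569, hg38, plus strand) overlaps DDIT3 and ARHGAP9 on the opposite strand over 12.4% of its exonic bases, and whether reads were counted by strand is not given in the sources used here. IARS1, the isoleucine enzyme, was at 5948 and 6032 against 3616 and 3590 normalized read counts, a log2 fold change of -0.73 ± 0.05 (adjusted p = 2.36e-10). In both genes the groups did not overlap, as in 6811 of the 6812 tested genes, so the selection of the table leaves this uninformative.

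The other synthetases, each named for the amino acid it loads, followed in order. KARS1 (lysine) had a log2 fold change of -0.69, EPRS1 (glutamate and proline, 1 bifunctional chain) and AARS1 (alanine) of -0.55 each, GARS1 (glycine) of -0.51, LARS1 (leucine) of -0.47, RARS1 (arginine) of -0.44, YARS1 (tyrosine) of -0.40, TARS1 (threonine) of -0.39, WARS1 (tryptophan) of -0.33 and NARS1 (asparagine) of -0.28. With SEs of 0.05 to 0.06, neighbours in this order lay within about 1 SE of each other except for KARS1 and EPRS1, and differences between genes were not tested. NARS1, at the small end, was at 3145 and 3297 normalized read counts in shctrl and at 2628 and 2684 in shUSP2-AS1.

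Synthetases fall into 2 structural classes, and some of both sit in a shared complex. Class I synthetases, with a Rossmann-fold catalytic domain, had a median log2 fold change of -0.47 over 7 of 10 listed, and class II synthetases, built on an antiparallel sheet, had -0.51 over 5 of 7. EPRS1, which joins an enzyme of each class, was counted in class I. The enzymes that sit together in the multisynthetase complex had a median of -0.62 over 6 of 7 listed, ranging from -0.76 (MARS1) to -0.44 (RARS1). The 6 listed synthetases with the response element ranged from -0.76 to -0.28 with a median of -0.53, and the 4 with a promoter entry but without it ranged from -0.69 to -0.33 with a median of -0.50. LARS1 and YARS1 have no promoter entry. Over all listed members the medians were -0.46 for the 12 with the element and -0.37 for the 16 without it, and neither difference was tested. CARS1, HARS1, QARS1, SARS1 and VARS1 have no value in the table and were not analysed here.

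The serine and one-carbon enzymes held the largest decreases of the set and 1 increase. Of the 7 that were listed, 6 fell and MTHFD1L rose, with a median log2 fold change of -0.60. Summed over the 7 genes, normalized read counts went from 16171 and 15769 to 9919 and 10208, a difference of -37.0%.

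PHGDH, which takes 3-phosphoglycerate into serine synthesis as the first committed step, was at 926 and 837 normalized read counts in shctrl and at 265 and 261 in shUSP2-AS1. This was a log2 fold change of -1.74 ± 0.09 (SE, adjusted p = 8.71e-12), or 3.34-fold lower, at chr1:119648411-119744218 (hg38, ENSG00000092621, plus strand). The later steps of the pathway fell too, by smaller amounts. PSAT1, the transaminase, was at 3790 and 3887 against 2749 and 2849 (log2 fold change -0.46 ± 0.05), and PSPH, the phosphatase that releases serine, at 880 and 804 against 537 and 573 (-0.60 ± 0.08). All 3 genes of serine synthesis thus fell, with the first step showing the largest decrease.

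MTHFD2, the mitochondrial enzyme that oxidises methylene-tetrahydrofolate and that many tumours re-express, was at 2773 and 2638 normalized read counts in shctrl and at 1076 and 1207 in shUSP2-AS1. Its log2 fold change was -1.25 ± 0.06 (SE, adjusted p = 8.93e-12), or 2.37-fold lower. The gene (ENSG00000065911, chr2:74198610-74217565, hg38, plus strand) shares 14.2% of its exonic bases with genes on the opposite strand, SLC4A5 among them. Its mitochondrial neighbour SHMT2, which splits serine to glycine and a one-carbon unit, fell by 0.57 on the log2 scale, from 2916 and 2722 to 1875 and 1924 normalized read counts.

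MTHFD1, the trifunctional cytosolic enzyme, was at 3668 and 3698 normalized read counts against 1958 and 1888, a log2 fold change of -0.94 ± 0.05 (adjusted p = 2.76e-11). It stayed just short of a 2-fold change with the authors' size factors and passed it with RLE or DESeq2 size factors computed again from the listed genes alone. MTHFD1L, the mitochondrial formate-producing synthetase, went the other way, from 1218 and 1182 to 1459 and 1506 (log2 fold change 0.30 ± 0.06, adjusted p = 0.000158). MTHFD1L thus rose, unlike the other 6 enzymes of this role. SHMT1, the cytosolic counterpart of SHMT2, is not listed.

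**Figure D3:**
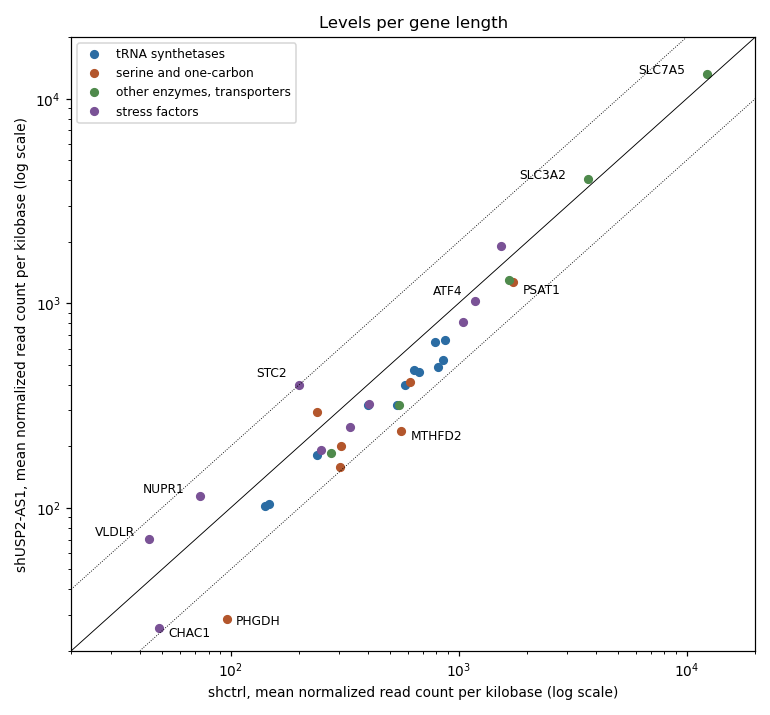
Each point is a listed member, with its mean normalized read count per kilobase of gene model in shctrl on the horizontal axis and in shUSP2-AS1 on the vertical axis, both on log scales, coloured by role, with a solid line of equality and dotted lines at 2-fold. SLC7A5 and SLC3A2 stand highest and on the line of equality, PHGDH and MTHFD2 lie under the lower dotted line, and STC2 lies on the upper one.

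Other amino acid enzymes and transporters divided by gene. Of the 5 that were listed, 3 fell, SLC3A2 rose and SLC7A5 did not pass the test. PYCR1, the mitochondrial reductase that completes proline synthesis, was at 1648 and 1526 normalized read counts in shctrl and at 903 and 939 after knockdown, a log2 fold change of -0.78 ± 0.07 (SE, adjusted p = 5.18e-09). It shares 15.6% of its exonic bases with a gene on the opposite strand and 14.1% with one on its own strand. SLC7A1, the main transporter of arginine and lysine, was at 2082 and 2177 against 1383 and 1469, a log2 fold change of -0.58 ± 0.06 (adjusted p = 7.34e-08), and SLC1A5, a glutamine carrier, fell by 0.36 on the log2 scale. Both transporters thus fell.

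SLC7A5 and SLC3A2, the light and heavy chains of the LAT1 exchanger that imports leucine and other large neutral amino acids, differed least between the groups. SLC7A5 was at 57923 and 59231 normalized read counts in shctrl and at 62034 and 63966 after knockdown, a log2 fold change of 0.10 ± 0.05 (adjusted p = 0.0683) that became -0.013 with RLE and -0.010 with DESeq2 size factors computed from the listed genes alone. SLC3A2 was at 19560 and 18636 against 20055 and 21621, a log2 fold change of 0.13 ± 0.05 (adjusted p = 0.0288) that became 0.01 with either of those size factors (adjusted p = 0.883 and 0.847). Without shctrl replicate 2 or without shUSP2-AS1 replicate 2 the SLC3A2 difference no longer passed the test (adjusted p = 0.208 and 0.273). The pair were the most abundant members per gene length, with mean levels in shctrl of 12296 normalized read counts per kilobase for SLC7A5 and 3706 for SLC3A2, followed by PSAT1 at 1740, SLC1A5 at 1659, CEBPB at 1535 and ATF4 at 1184. Summed over the 5 genes the role went from 86813 and 87028 to 88629 and 92357 normalized read counts, a sum in which SLC7A5 outweighs the rest. ASNS and ALDH18A1, of asparagine and proline synthesis, are not listed.

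The stress factors moved in both directions. Of the 10 that were listed, 6 fell and 4 rose, with a median log2 fold change of -0.27 and the range from -0.92 (CHAC1) to 0.99 (STC2).

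ATF4 itself (ENSG00000128272, chr22:39519672-39522683, hg38, plus strand) was at 3546 and 3350 normalized read counts in shctrl and at 2848 and 3132 in shUSP2-AS1. This gave a log2 fold change of -0.21 ± 0.06 (SE, adjusted p = 0.00225), the smallest decrease of the 27 members that fell, and without shUSP2-AS1 replicate 1 it was -0.14 and no longer passed the test (adjusted p = 0.0574). ATF4 activity is set largely by translation, which these mRNA libraries do not measure. The related factor ATF5, also controlled by upstream reading frames, had a log2 fold change of -0.38, and CEBPG, a heterodimer partner of ATF4, of -0.42. CEBPB, another C/EBP partner, rose instead, from 2850 and 2796 to 3449 and 3586 normalized read counts (log2 fold change 0.32 ± 0.05). The partners of ATF4 therefore moved in opposite directions.

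CHAC1, a glutathione-degrading enzyme induced by ATF4, was at 97.6 and 102 normalized read counts in shctrl and at 59.9 and 45.8 in shUSP2-AS1. Its log2 fold change was -0.92 ± 0.21 (SE, adjusted p = 0.000487). It was among the least abundant members and had the widest gap between replicates, 0.38 on the log2 scale, and without shUSP2-AS1 replicate 1 it was called lower at -1.11, while without shUSP2-AS1 replicate 2 it was at -0.73. TRIB3, a pseudokinase that feeds back on ATF4, and DDIT4, an inhibitor of mTORC1, had log2 fold changes of -0.34 and -0.37. DDIT3, which encodes CHOP, is not listed.

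STC2, a secreted glycoprotein induced by endoplasmic reticulum stress, was at 1217 and 1232 normalized read counts in shctrl and at 2455 and 2423 in shUSP2-AS1. Its log2 fold change of 0.99 ± 0.06 (SE, adjusted p = 3.42e-11; ENSG00000113739, chr5:173314713-173329503, hg38, minus strand) lay just under the 2-fold threshold. It was called higher with upper quartile scaling (1.05), without shctrl replicate 2 and without shUSP2-AS1 replicate 2 (both 1.00), and not with the recomputed RLE (0.88) or DESeq2 (0.88) size factors or without either of the other libraries (both 0.98). VLDLR, a lipoprotein receptor that ATF4 induces under stress, was at 377 and 451 against 658 and 659 (log2 fold change 0.67 ± 0.09), and NUPR1, a small chromatin-associated stress protein, at 408 and 404 against 593 and 665 (0.63 ± 0.09). NUPR1 shares 16.5% of its exonic bases with a noncoding gene on its own strand. STC2, VLDLR and NUPR1 thus had positive log2 fold changes, while those of ATF4, CHAC1, TRIB3 and DDIT4 were negative.

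Beyond the members, synthetase genes outside the set moved the same way. All 5 listed of 17 mitochondrial synthetases fell (median log2 fold change -0.48), among them EARS2 and AARS2 at -0.59 and -0.48, which charge mitochondrial tRNA. All 4 listed of 7 other cytosolic synthetase genes and complex scaffolds fell as well (median -0.60), including both chains of the phenylalanine enzyme, FARSA (-0.81) and FARSB (-0.63), and the scaffold AIMP2 (-0.58). None of these 9 was called lower. Each had a negative log2 fold change under RLE, upper quartile and TMM scaling too.

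Other one-carbon and glycine genes were also mostly lower, with 11 of the 14 listed of 21 falling and a median log2 fold change of -0.50. TYMS, the thymidylate synthase, was called lower at a log2 fold change of -1.09. The cytosolic formyl-tetrahydrofolate dehydrogenase ALDH1L1 was called higher at 2.06 ± 0.31 (SE). ALDH1L1 rested on few reads, 14 and 24 in shctrl and 78 and 94 in shUSP2-AS1. Of 17 further enzymes of amino acid synthesis and breakdown 11 were listed, 6 lower and 5 higher, and the 3 with the largest changes were CBS (cystathionine synthesis) at -2.62, PRODH (proline oxidation) at -2.26 and ASS1 (arginine synthesis) at -1.17. PRODH rested on few reads, with a normalized read count of 31.9 in the highest and 1.76 in the lowest library. CBS had 144 and 90 reads in shctrl and only 20 and 18 in shUSP2-AS1.

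Other amino acid transporters differed from SLC7A1 and SLC1A5 in direction. All 6 listed of 12 rose (median log2 fold change 0.43), led by SLC36A1, a lysosomal proton-coupled carrier, at 1.33, SLC6A9, a glycine carrier, at 0.66 and SLC7A6, a cationic exchanger, at 0.46, and with the recomputed DESeq2 size factors 5 of the 6 passed the test. Of 25 eIF2 kinases, eIF2 regulators and other stress genes, 16 were listed, of which 6 fell and 10 rose (9 with the recomputed RLE or DESeq2 size factors). ATF3, a stress-induced factor often grouped with ATF4 targets, was at 239 and 246 normalized read counts in shctrl and at 997 and 1065 after knockdown, a log2 fold change of 2.08 ± 0.09 (adjusted p = 5.37e-13). DNAJB9, an endoplasmic reticulum chaperone partner, was at 0.92, and EIF4EBP1, a translation repressor and ATF4 target, at -0.92. Stress genes outside the set thus also moved both ways, with the largest change upward.

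**Figure D4:**
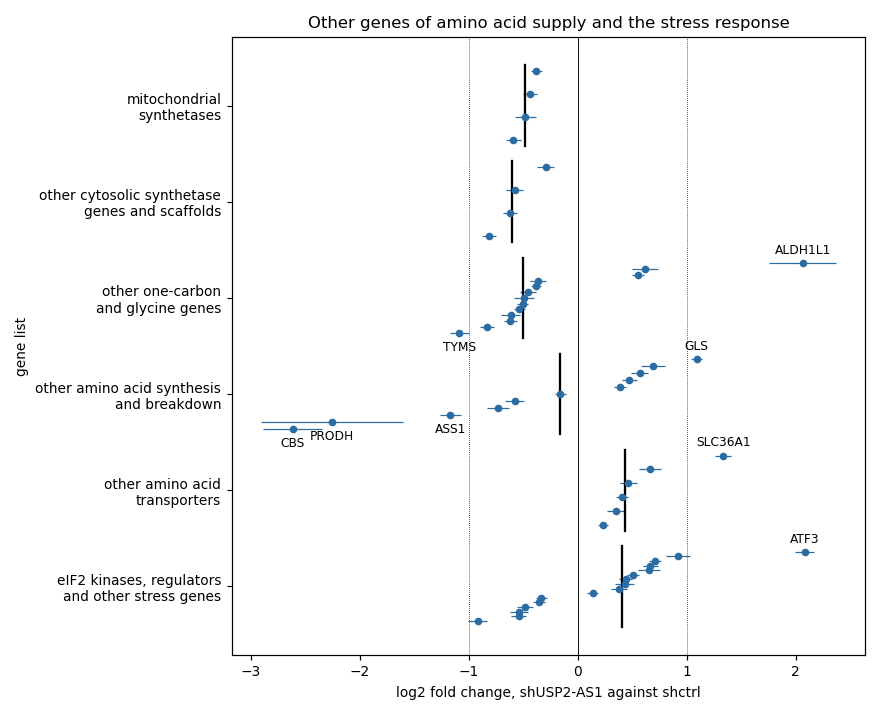
Log2 fold changes with bars of 1 SE for genes of 6 further lists, with a black line at the median of each list, dotted lines at -1 and 1, and names on the genes called lower or higher. Every synthetase gene plotted lies left of 0 and every other amino acid transporter right of it.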

How the data were processed

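Libraries were compared between 2 groups of 2 A549 samples, shctrl and shUSP2-AS1. Value columns with the prefix scr were taken as shctrl and those with the prefix sh as shUSP2-AS1, the only knockdown compared. The column names do not state USP2-AS1, so this match was inferred, with replicates matched by number. The deposited values are a normalized signal per gene, made by the authors by dividing read counts by DESeq2 size factors. The submitters' processing notes name the genome build hg38, HISAT2 2.0.5, featureCounts 1.5.0-p3 and DESeq2 1.20.0. The strand setting and the annotation release are not given in the sources used here. The authors' columns of fold changes, p-values and adjusted p-values were not used, apart from counting that all 6828 genes have an adjusted p-value below 0.05, so genes that changed less are absent and 9 members were not analysed here. Whole reads were recovered from 100% of the values, to within 0.01 of a read.

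Values were analysed as log2(value + 1) with limma 3.58.1 (moderated test with a mean-variance trend, Benjamini-Hochberg adjustment over 6812 genes with a mean of 10 or more). limma supplies every adjusted p that names no other tool. The thresholds were 0.05 for the adjusted p and 1 for the size of the log2 fold change. With 2 samples per group the SE leans on the spread shared across genes. The fits were first run on simulated data in which few genes changed and all shared 1 dispersion. The deposited table differs in this, so that run does not show how the fits perform here. Alternatives were RLE, upper quartile and TMM scaling, other filters and a pseudocount of 0.1, a replicate block, edgeR 4.0.16 and DESeq2 1.42.0 on the recovered reads (RLE, upper quartile, TMM and DESeq2 factors were computed again from the listed genes alone), each library left out in turn, and other thresholds. Levels per kilobase use the gene length in the table. Promoters came from RefSeq (GRCh38.p14), and exon overlaps from GENCODE 44.

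The members, the other lists and the motifs were chosen with earlier results of these data known. Named with values in every library are members called and the 2 with the largest absolute log2 fold change in each role, and from each other list the 3 with the largest change, apart from genes that are not reported here. ATF4, CEBPB, MTHFD1, MTHFD1L, NARS1, NUPR1, PSAT1, PSPH, SHMT2, SLC3A2, SLC7A5 and VLDLR were given library values after their values were seen.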

Additional observations from a re-analysis of the deposited data

How the results depend on the processing

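Over 13 alternatives, 432 of 442 member fold changes kept their direction and their side of an adjusted p of 0.05. This count says little by itself. The other filters and the replicate block leave each member's fold change as it was, so its direction could not change. Members are also listed because they passed the authors' test on the same reads. RLE size factors computed from the listed genes moved log2 fold changes by a median of -0.12 over all genes, and SLC7A5 then turned to -0.013, as it did with DESeq2 (-0.010), while upper quartile scaling (0.17) and edgeR (0.11) brought it past the test. With RLE the medians were -0.61 for synthetases, -0.72 for serine and one-carbon enzymes, -0.39 for stress factors and -0.48 for the other enzymes and transporters, and with DESeq2 they were -0.61, -0.72, -0.39 and -0.47. With upper quartile scaling they were -0.43, -0.54, -0.21 and -0.30. RLE and DESeq2 called 4 members lower, CHAC1 and MTHFD1 with PHGDH and MTHFD2, and upper quartile scaling called 1 higher, STC2. Leaving out 1 library at a time gave 0 to 1 members called higher, and medians from -0.53 to -0.45 for synthetases, -0.66 to -0.53 for serine and one-carbon enzymes and -0.32 to -0.22 for stress factors. Without a fold threshold, 27 members and 3362 genes were lower and 6 members and 3449 genes higher. A limma test against a 2-fold change called 523 genes lower and 541 higher, PHGDH and MTHFD2 among the former. Another set of size factors moves the log2 fold change of every member by nearly the same amount. Why the recomputed factors differ from the authors' was not tested, nor was the cause of the other shifts.

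The replicate numbers are shared by the groups, and whether same-numbered libraries were prepared as pairs is not given in the sources used here. The deviations of same-numbered libraries had a correlation of -0.04 across genes. This shows no shared replicate effect but cannot settle whether they were paired. A replicate block left the calls at 2 members lower and 0 higher, and SLC3A2 no longer passed the test in it (adjusted p = 0.0857).

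With 2 libraries per group, differences as small as those of ATF4 and SLC3A2 depend on single libraries. A protein or translation measure was not analysed here.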
